A study of Homo sapiens with 10 samples.

Results

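The 39 genes described here encode the centromere and kinetochore of the human chromosome and the checkpoint that watches over it. They were chosen by name, as the rows of the count table whose Ensembl identifier carries 1 of the 39 listed symbols. All 39 had a row, among 55841 counted genes, and all 39 were among the 23552 genes with enough counts to test. RNA came from embryonic stem cells of the human line HES9, as the labels name it, grown without feeder cells in mTESR1 on matrigel. The general population, unsorted cells, had 5 libraries, and HHH, the cells gated for high levels of the surface antigens EPCAM, CD9 and GCTM-2, had 5. The titles name 2 batches: batch 1 held 2 libraries of each population, and batch 2 held 3. The labels give no treatment and no genetic change for either population. All libraries are from 1 line, and nothing in the labels says that replicates were separate cultures, so p-values measure the spread between these libraries, which may be technical. The sorted libraries went through staining and sorting and the general libraries are labelled as not sorted, so an effect of the sort cannot be told apart from the population.

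A kinetochore is assembled on each sister chromatid. Nucleosomes that hold CENPA, the centromeric form of histone H3, are bound by the constitutive centromere-associated network (CCAN), which in mitosis carries the KMN network of KNL1, the MIS12 complex and the NDC80 complex, the part that grips the microtubule. Unattached kinetochores recruit MAD and BUB proteins, which hold back CDC20 and with it the anaphase-promoting complex (APC/C), until every chromosome is attached. Aurora B, in the chromosomal passenger complex, releases faulty attachments. The mRNAs of many of these genes accumulate in G2 and mitosis, so in a bulk culture their level depends on the share of cells in these phases. Pluripotent stem cells in culture divide rapidly. In bulk RNA, fewer cells of a kind and less RNA per cell cannot be told apart.

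Total counts ranged from 47242595 to 78503395 per library, and the smallest count of a listed gene in any library was 764, and depth did not limit their measurement. Levels are given as CPM, that is, counts divided by the library size after its TMM scaling and put on one common scale, and 1 count stood for 0.0153 to 0.0229 CPM. Pluripotency markers were high in both populations: POU5F1 ran from 470 to 542 CPM in general and from 461 to 641 CPM in HHH. Markers of mesoderm and endoderm summed to 0.291 to 0.521 CPM in general and to 0.343 to 0.550 CPM in HHH over the 1 of 9 with enough counts, which was MIXL1. SOX17, GATA4 and GATA6 were at or near 0, FOXA2 ran from 0 to 0.906 CPM in general and from 0 to 1.67 CPM in HHH, and TBXT ran from 0.134 to 0.544 CPM in general and from 0.0429 to 0.156 CPM in HHH. The populations were not alike in other markers. Of 9 neural markers tested, 7 were lower in HHH, and the list summed to 314 to 426 CPM in general and 181 to 286 CPM in HHH.

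The first comparison was HHH against general over both batches, with batch as an additive term. BUB3 and SKA3, AURKB and AURKA were higher in HHH, and no listed gene was lower. These 4 of 39 (10.3%) passed edgeR's quasi-likelihood test at an adjusted p under 0.05 (Benjamini-Hochberg over all tested genes), whereas 1.94% of all tested genes passed as higher and 3.89% as lower. The differences were small. The log2 changes of the 39 genes lay between -0.16 and 0.40, with 32 above 0, and their median was 0.12 beside 0.016 over all tested genes. None of the 4 passed with a fold over 1.5 added. At an unadjusted p under 0.05, 14 listed genes were higher and 0 lower, against 10.1% of all tested genes higher and 10.8% lower. At an adjusted p under 0.05, DESeq2 and limma with voom also called none lower.

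BUB3, a WD40 protein that brings BUB1 and BUB1B to the kinetochore, lies on chromosome 10 (chr10:123154402-123170467, plus strand, GENCODE 44 on GRCh38). Its level was 254 and 242 CPM in the general libraries of batch 1 and 305 and 301 CPM in the HHH libraries of batch 1. In batch 2 it was 189, 209 and 189 CPM in general and 261, 271 and 287 CPM in HHH. Every HHH library was thus above every general library of the 10, with batch 1 the higher of the batches within each population. The log2 change was 0.40 ± 0.07 (SE), a 1.32-fold higher level, with an adjusted p of 0.00331 (edgeR's quasi-likelihood test). BUB3 passed whichever of the 10 libraries was left out, with adjusted p of 0.00315 to 0.0169.

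SKA3, a subunit of the SKA complex that helps the kinetochore stay on a shrinking microtubule, lies on chromosome 13 (chr13:21153595-21176552, minus strand). General libraries had 41.1 and 47.3 CPM in batch 1, and HHH libraries 53.8 and 46.4 CPM. In batch 2, general libraries had 40.5, 37.9 and 37.8 CPM and HHH libraries 56.7, 49.1 and 57.9 CPM. The populations overlapped in batch 1 and were well apart in batch 2. The log2 change was 0.37 ± 0.09 (SE; adjusted p = 0.0190, edgeR). It fell short of the threshold without HHH batch 2 replicate 1 or without any 1 of the general libraries of batch 2, with adjusted p up to 0.0648. SKA1, the other listed subunit of the complex, had a log2 change of 0.08.

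AURKB, the kinase of the chromosomal passenger complex, lies on chromosome 17 (chr17:8204733-8210600, minus strand). Its level was 57.0 and 65.3 CPM in general and 71.2 and 72.0 CPM in HHH in batch 1. Batch 2 gave 57.3, 55.8 and 65.8 CPM in general and 69.8, 74.5 and 78.0 CPM in HHH. Every HHH library was above every general library, and batch 2 differed from batch 1 by 0.0062 ± 0.07 (SE) on the log2 scale. This was a log2 change of 0.28 ± 0.07 (SE; adjusted p = 0.0349, edgeR).

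AURKA, the kinase of centrosomes and spindle poles, lies on chromosome 20 (chr20:56369389-56392337, minus strand). Its level was 99.8 and 99.2 CPM in general and 112 and 112 CPM in HHH in batch 1. Batch 2 gave 95.5, 101 and 86.7 CPM in general and 113, 125 and 121 CPM in HHH. Again the populations did not overlap. AURKA had a log2 change of 0.27 ± 0.07 (SE; adjusted p = 0.0341, edgeR). The calls of both Aurora kinases were close to the threshold: each passed in 3 of the 10 fits without 1 library, and the adjusted p reached 0.112 for AURKB without general batch 2 replicate 1 and 0.119 for AURKA without HHH batch 2 replicate 2.

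Libraries with the same replicate number within a batch deviated together, so the fit with the replicate number as a block is given beside these calls. In it 2 listed genes passed, SKA3 (adjusted p = 0.0168) and BUB3 (0.0112), while AURKB (0.0650) and AURKA (0.0527) did not, all by edgeR. General batch 1 replicate 1 and HHH batch 1 replicate 3 had no partner of the same number. They added nothing to the population difference in the block fit, which thus rested on fewer libraries than the additive fit. In the additive fit, the number of passing genes fell to 1, BUB3, without HHH batch 2 replicate 1, general batch 2 replicate 1 or general batch 2 replicate 2. Over all alternatives the adjusted p ran up to 0.316 for BUB3, 0.474 for SKA3, 0.591 for AURKB and 0.662 for AURKA, each on the deposited log2 values. The number in the additive fit fell to 2 without HHH batch 2 replicate 2 or general batch 2 replicate 3, and rose to 6 without HHH batch 1 replicate 3.

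To show what the promoters of these genes share, windows from 250 bases before to 50 after an annotated start were taken from RefSeq (GRCh38.p14). The RefSeq start can differ from the start of a gene in GENCODE, and the windows of PLK1, CENPA and AURKB lie inside the GENCODE spans of these genes. A window was found for 31 of the 39 genes, 35 windows in all, and not for CENPH, CENPL, CENPM, KNL1, BUB3, TTK, BIRC5 and AURKA. They were searched on both strands for the cell cycle genes homology region (CHR), TTTGAA or TTCGAA, at which repressor complexes of late cell cycle genes are known to bind, and for the CCAAT box, CCAAT, a site of the factor NF-Y. The windows of SKA3, AURKB and PLK1 are shown because these were the genes with a window among those that passed over both batches or in batch 1, and those of CENPA and NDC80 because they were the calls of batch 2 in the centromeric and KMN groups. Capitals mark the matches, read from either strand, so that a CHR may read TTCAAA and a CCAAT box ATTGG.
SKA3: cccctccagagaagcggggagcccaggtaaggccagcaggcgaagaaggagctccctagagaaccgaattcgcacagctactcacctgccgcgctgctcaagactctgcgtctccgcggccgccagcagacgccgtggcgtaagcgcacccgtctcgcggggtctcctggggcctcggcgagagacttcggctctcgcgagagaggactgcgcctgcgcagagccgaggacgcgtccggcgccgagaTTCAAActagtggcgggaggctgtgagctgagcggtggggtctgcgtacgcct
AURKB: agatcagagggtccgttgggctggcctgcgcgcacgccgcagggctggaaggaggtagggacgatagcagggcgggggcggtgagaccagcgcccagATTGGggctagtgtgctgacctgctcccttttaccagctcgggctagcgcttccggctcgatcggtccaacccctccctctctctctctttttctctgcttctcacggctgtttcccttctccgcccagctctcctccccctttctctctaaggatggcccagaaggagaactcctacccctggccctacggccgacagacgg
PLK1: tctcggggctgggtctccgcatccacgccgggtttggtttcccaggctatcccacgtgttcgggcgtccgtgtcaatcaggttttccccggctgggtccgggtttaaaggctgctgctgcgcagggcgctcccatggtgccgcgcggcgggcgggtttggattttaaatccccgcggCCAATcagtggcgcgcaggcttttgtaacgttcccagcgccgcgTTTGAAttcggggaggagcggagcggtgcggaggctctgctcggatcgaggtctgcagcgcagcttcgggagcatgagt
CENPA: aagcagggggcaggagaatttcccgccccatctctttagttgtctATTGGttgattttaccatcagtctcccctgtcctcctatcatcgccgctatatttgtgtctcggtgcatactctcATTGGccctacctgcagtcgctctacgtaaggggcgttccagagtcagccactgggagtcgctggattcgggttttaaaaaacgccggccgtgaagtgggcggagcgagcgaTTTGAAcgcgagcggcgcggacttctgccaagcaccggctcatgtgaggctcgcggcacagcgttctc
NDC80: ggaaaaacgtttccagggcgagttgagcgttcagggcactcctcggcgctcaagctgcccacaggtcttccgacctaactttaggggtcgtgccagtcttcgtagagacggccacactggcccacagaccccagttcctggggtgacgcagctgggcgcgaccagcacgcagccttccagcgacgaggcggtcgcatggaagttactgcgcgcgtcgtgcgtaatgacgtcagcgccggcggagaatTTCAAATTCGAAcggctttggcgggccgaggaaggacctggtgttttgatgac

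These windows lie at chr13:21176503-21176802 (SKA3, minus strand), chr17:8210176-8210475 (AURKB, minus strand), chr16:23678639-23678938 (PLK1, plus strand), chr2:26785806-26786105 (CENPA, plus strand) and chr18:2571307-2571606 (NDC80, plus strand). Positions are counted from the RefSeq start, with no position 0. In SKA3 the CHR began at position -3, in CENPA at -18 and in PLK1 at -29. NDC80 had a pair of adjoining matches, at -3 and 4. AURKB had a CCAAT box at -153 and no match of the CHR letters in the window shown. A further window of AURKB, at chr17:8210200-8210499, had no match of the CHR letters either. A CHR was present in 18 of the 35 windows (51.4%), against 16.4% of 35116 windows of the same length over all genes. A CCAAT box was present in 21 (60%), against 34.6%, and both were present in 12 (34.3%), against 6.38%. Within 40 bases on either side of the start, a limit set after the matches had been seen, a CHR began in 15 of the windows (42.9%) and in 4.32% of all windows. Matches of letters are a description and not sites of binding. In 1 of the 35 windows, matches overlapped. Windows with a CHR numbered 5 of 13 in the centromeric group, 3 of 8 in the KMN network and 4 of 5 in the checkpoint group.

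Within each batch, the populations were compared in a model with 1 mean for each population and batch. In batch 2, 9 listed genes were higher in HHH (23.1%), against 3.83% of all tested genes higher and 5.65% lower. They were CENPA, NDC80, SKA3, BUB1B, BUB3, MAD2L1, TTK, AURKB and AURKA, and none was lower. In batch 1, PLK1 was higher and no other listed gene passed (1 of 39, 2.56%), against 1.12% of all tested genes higher and 1.02% lower. At an unadjusted p under 0.05, KNL1, DSN1 and BUB1 were lower in batch 1 (7.69%, against 7.70% of all tested genes) and none in batch 2 (against 13.7%). The log2 changes in batch 2 had a median of 0.22 and were above 0 for 34 genes. In batch 1 the median was -0.04, and 18 genes were above 0. The medians over all tested genes were 0.0043 and 0.0069. The plot of changes by role places the batches side by side.

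**Figure D1:**
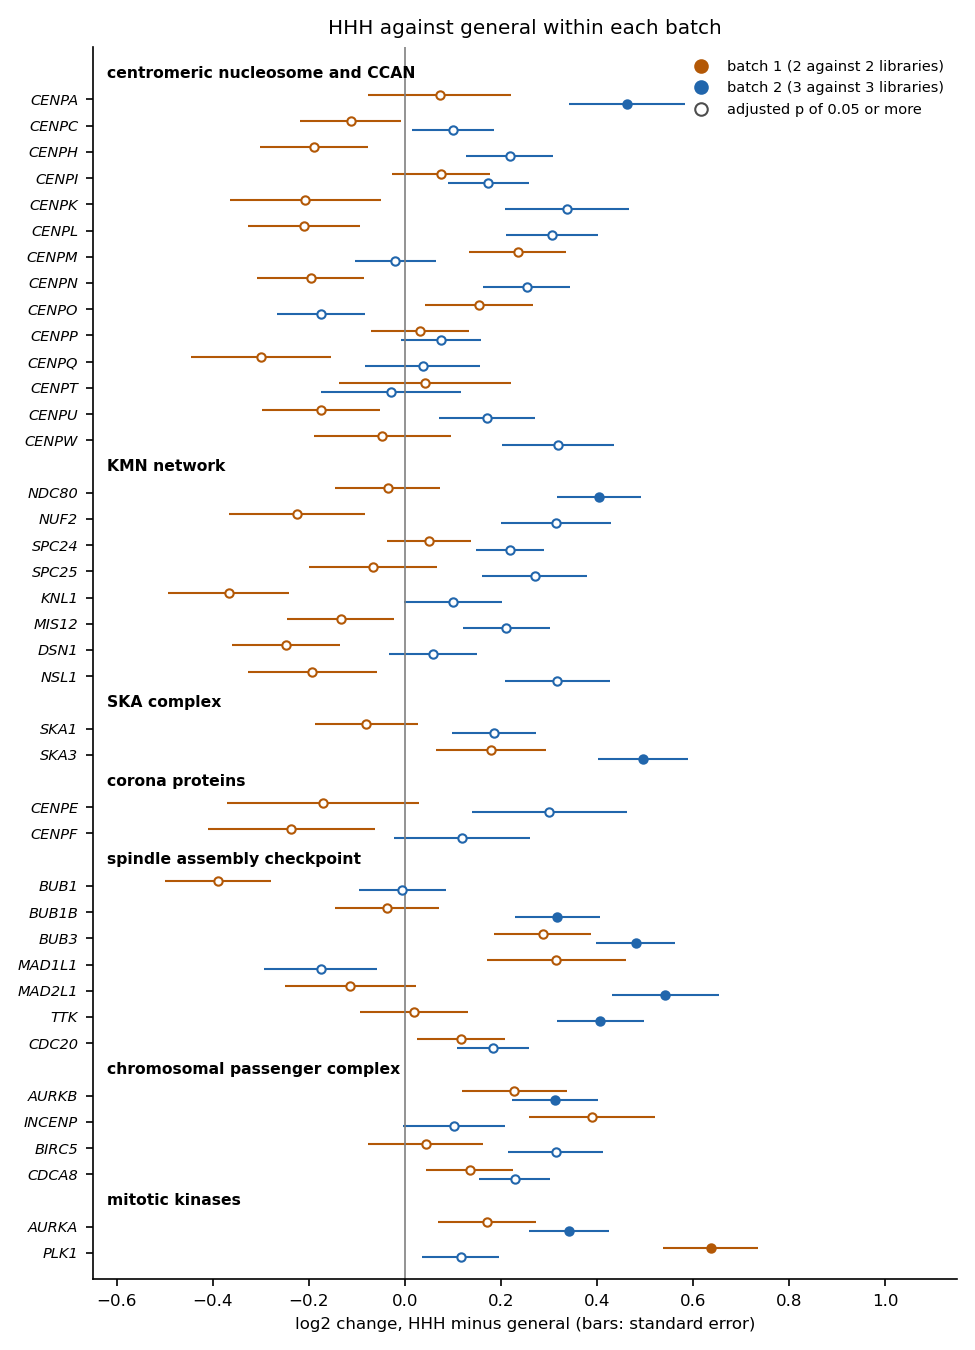
Log2 change of HHH against general (horizontal axis) for each of the 39 genes, grouped by role, in batch 1 (orange) and batch 2 (blue), with bars for the standard error and filled points for an adjusted p under 0.05. In batch 2 the points lie mostly to the right of 0 (34 of 39), in batch 1 they lie on both sides (18 of 39 to the right).

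A call in 1 batch and not in the other does not show a difference between batches, so the difference of the changes was tested itself. No listed gene passed this interaction test of edgeR, in which 0.777% of all tested genes passed. The lowest adjusted p values were those of PLK1 (0.0792) and MAD2L1 (0.0987). At an unadjusted p under 0.05, 17 listed genes differed between batches (43.6%), against 18.9% of all tested genes. The count of 0 held in all 12 alternatives tried for this test. The difference, batch 2 minus batch 1, was above 0 for 33 of the 39 genes, against 49.5% of all tested genes, with a median of 0.34. With the GC trend removed the median was 0.20, with 34 above 0.

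PLK1, the polo-like kinase that drives entry into mitosis and acts at kinetochores, was the gene of batch 1. It lies on chromosome 16 (chr16:23677656-23690367, plus strand), and 12.8% of its exonic bases overlap other annotated genes. The general libraries of batch 1 had 47.4 and 52.2 CPM, and the HHH libraries 77.8 and 76.9 CPM. In batch 2, general libraries had 78.3, 84.8 and 83.1 CPM and HHH libraries 87.3, 95.2 and 84.4 CPM. The general libraries of batch 1 thus stood alone at a low level, and in batch 2 the populations overlapped. The log2 change was 0.64 ± 0.10 (SE; adjusted p = 0.0036, edgeR) in batch 1 and 0.12 ± 0.08 (adjusted p = 0.373) in batch 2. The call in batch 1 was lost without general batch 1 replicate 1 (adjusted p = 0.0754), and over the 6 alternatives the adjusted p ran from 0.00312 to 0.0754. Over both batches its log2 change was 0.32 ± 0.09 (adjusted p = 0.0584).

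MAD2L1, the checkpoint protein MAD2 that captures CDC20, had the largest change in batch 2. There, general libraries had 78.1, 83.4 and 71.3 CPM and HHH libraries 102, 104 and 134 CPM. In batch 1, general libraries had 142 and 141 CPM and HHH libraries 141 and 120 CPM. HHH was above general in every library of batch 2, with HHH batch 2 replicate 3 the highest, and the populations overlapped in batch 1. The log2 changes were 0.54 ± 0.11 (SE; adjusted p = 0.00867, edgeR) in batch 2 and -0.11 ± 0.14 in batch 1.

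TTK, the kinase MPS1 that starts the checkpoint signal, was also higher in HHH in batch 2. Its level there was 122, 123 and 111 CPM in general and 148, 149 and 176 CPM in HHH, with no overlap. In batch 1 it was 154 and 145 CPM in general and 157 and 146 CPM in HHH. The log2 change was 0.41 ± 0.09 (SE; adjusted p = 0.0137, edgeR) in batch 2 and 0.02 ± 0.11 in batch 1.

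BUB1B, or BUBR1, the inhibitor of the APC/C, shares 10.2% of its exonic bases with neighbouring annotations. Its level in batch 2 was 215, 183 and 203 CPM in general and 248, 252 and 248 CPM in HHH. In batch 1 it was 152 and 161 CPM in general and 142 and 163 CPM in HHH. The HHH libraries of batch 2 stood above all others, and those of batch 1 lay around their general counterparts. The log2 change in batch 2 was 0.32 ± 0.09 (SE; adjusted p = 0.0391, edgeR).

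Its relative BUB1, the kinase that marks centromeric chromatin for shugoshin, was the only listed gene below 0 in both batches, and it did not pass. It had 330 and 295 CPM in general and 222 and 255 CPM in HHH in batch 1. Batch 2 had 334, 315 and 305 CPM in general and 307, 311 and 332 CPM in HHH. The populations were apart in batch 1 and overlapped in batch 2. The log2 change in batch 1 was -0.39 ± 0.11 (SE; adjusted p = 0.0868, edgeR), and over both batches it was -0.16. The remaining checkpoint genes were CDC20, the activator of the APC/C, at 0.16, and MAD1L1, the partner of MAD2 at the kinetochore, at 0.02.

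**Figure D2:**
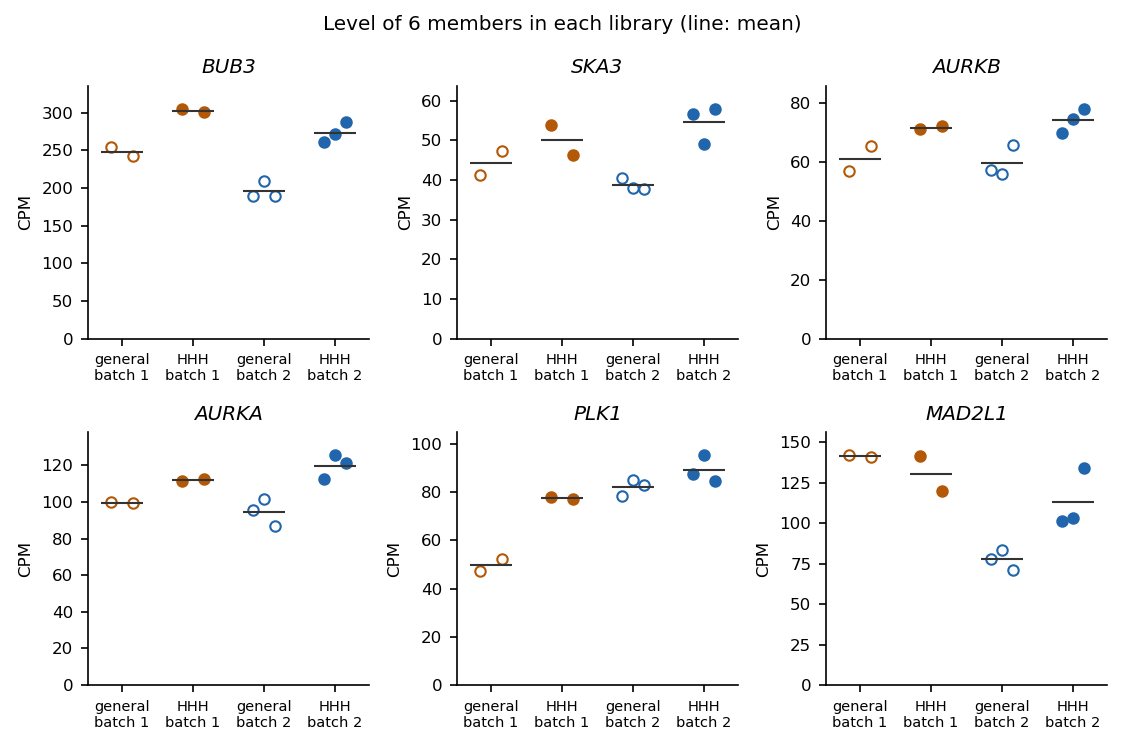
Level in CPM (vertical axis, from 0) of 6 genes in each library, general (open) and HHH (filled), batch 1 (orange) and batch 2 (blue), with lines for the means. BUB3, AURKB and AURKA are higher in every HHH library of either batch, PLK1 parts the populations in batch 1 (47.4 and 52.2 against 77.8 and 76.9 CPM), and MAD2L1 and SKA3 part them in batch 2.

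In the centromeric nucleosome and the CCAN, 14 genes, none passed over both batches. The median log2 change was 0.07, -0.08 in batch 1 and 0.17 in batch 2. CENPA had the largest change. Its level in batch 2 was 15.4, 17.2 and 14.4 CPM in general and 19.5, 23.0 and 22.3 CPM in HHH, and in batch 1 it was 21.5 and 17.1 CPM in general and 17.7 and 22.9 CPM in HHH. The populations were separate in batch 2 and overlapped in batch 1. The log2 change in batch 2 was 0.46 ± 0.12 (SE; adjusted p = 0.0303, edgeR), and over both batches it was 0.31 ± 0.11 (adjusted p = 0.120).

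CENPH, a CCAN subunit that pairs with CENPK, was the most abundant of the group per length, at 34.9 CPM per kilobase in general and 36.5 in HHH. Its level in batch 1 was 86.2 and 75.9 CPM in general and 66.5 and 75.8 CPM in HHH. In batch 2 it was 74.2, 83.5 and 76.4 CPM in general and 85.6, 88.5 and 98.3 CPM in HHH. HHH was thus below general in batch 1 and above it in batch 2. Its log2 change was 0.06. The remaining members of the group did not pass in either batch. Over both batches CENPW, which forms a histone-fold pair with CENPT, had a log2 change of 0.17, CENPI of 0.13, CENPK of 0.12, CENPL of 0.10, CENPM of 0.08, CENPN, which reads the CENPA nucleosome, of 0.07, CENPP of 0.06, CENPU of 0.03 and CENPC, the scaffold of the inner kinetochore, of 0.02. CENPT, the linker to the NDC80 complex, stood at 0.00, CENPO at -0.04 and CENPQ at -0.10. Exonic overlap with other annotated genes was 39.9% in CENPP, 31.6% in CENPO, 20.2% in CENPT, 18.5% in CENPN and 14.9% in CENPU, and since the strand setting of the counting is not given, reads of these genes and their partners may be mixed.

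In the KMN network, 8 genes, none passed over both batches and the median log2 change was 0.11. All 8 were above 0 in batch 2 (median 0.24) and 7 were below 0 in batch 1 (median -0.16). NDC80, the subunit that binds the microtubule, had 49.4, 45.04 and 47.00 CPM in general and 56.9, 61.1 and 69.2 CPM in HHH in batch 2. In batch 1 it had 34.5 and 38.1 CPM in general and 35.4 and 35.4 CPM in HHH. HHH was above general in batch 2 and between the general libraries in batch 1. The log2 change was 0.40 ± 0.09 (SE; adjusted p = 0.0116, edgeR) in batch 2 and 0.23 ± 0.09 (adjusted p = 0.163) over both batches.

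SPC24, which ties the NDC80 complex to the inner kinetochore, was the most abundant of the network per length, at 17.2 CPM per kilobase in general and 19.1 in HHH. Its level was 50.9 and 52.5 CPM in general and 53.5 and 53.6 CPM in HHH in batch 1. Batch 2 gave 47.4, 49.3 and 47.1 CPM in general and 55.8, 55.0 and 56.5 CPM in HHH. HHH was above general in both batches, by a narrow margin, and the log2 change of 0.15 ± 0.06 (SE) did not pass (adjusted p = 0.180, edgeR). Its partner SPC25 had a log2 change of 0.14 and NUF2, the partner of NDC80, of 0.10. Of the MIS12 complex, NSL1 stood at 0.11, MIS12 at 0.07 and DSN1 at -0.06. KNL1, the platform for BUB1 and BUB3, stood at -0.08.

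CENPE, a kinesin, and CENPF, a dynein adaptor, sit in the outer corona of the kinetochore and differed far more between batches than between populations. CENPE had 41.2 and 62.1 CPM in general and 40.8 and 51.1 CPM in HHH in batch 1. The batch 2 libraries had 126, 80.1 and 109 CPM in general and 130, 136 and 122 CPM in HHH. CENPF had 182 and 244 CPM in general and 156 and 206 CPM in HHH in batch 1. In batch 2 it had 515, 405 and 443 CPM in general and 517, 541 and 420 CPM in HHH. Every library of batch 2 was thus above every library of batch 1, whereas the populations overlapped in each batch. The log2 difference of batch 2 against batch 1 was 1.26 for CENPE and 1.27 for CENPF, and between populations the log2 change was 0.12 ± 0.14 (SE) and -0.02 ± 0.12. In the same additive fit, a comparison added after the data had been seen, 10 listed genes were higher in batch 2 (25.6%) and 11 lower (28.2%), against 24.0% and 23.9% of all tested genes. The share of listed genes that differed between batches was thus near that of all genes.

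The chromosomal passenger complex, 4 genes, had a median log2 change of 0.21, and all 4 were above 0 in each batch, with AURKB as the call. BIRC5, or survivin, the subunit that brings the complex to the centromere, was the most abundant per length, at 44.1 CPM per kilobase in general. Its level was 223 and 211 CPM in general and 236 and 211 CPM in HHH in batch 1. Batch 2 gave 133, 156 and 128 CPM in general and 162, 169 and 188 CPM in HHH. The populations overlapped in batch 1 and were separate in batch 2, with a log2 change of 0.31 ± 0.10 (SE; adjusted p = 0.0577, edgeR) there and of 0.21 over both batches. INCENP, the scaffold of the complex, stood at 0.22 and CDCA8, or borealin, at 0.19 (adjusted p = 0.0855).

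Counted without a test, HHH libraries all lay above the general libraries for 10 listed genes in batch 1 (25.6%, against 22.5% of all tested genes) and all below for 12 (30.8%, against 21.0%). In batch 2 they all lay above for 24 (61.5%, against 18.1%) and all below for CENPO and MAD1L1 (5.13%, against 18.2%). With 2 against 2 libraries in batch 1 such a separation is common, and the share of genes above was near that of all genes. The genes above without overlap in both batches were SPC24, BUB3, CDC20, AURKB, CDCA8 and AURKA, which is 6 of 39, against 3.93% of all tested genes. A change below 0 in batch 1 and above 0 in batch 2 was found for 20 of the 39 genes, against 23.8% of all tested genes, and 14 were above 0 in both, against 26.7%. Each library relative to its batch is drawn in the heat map.

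**Figure D3:**
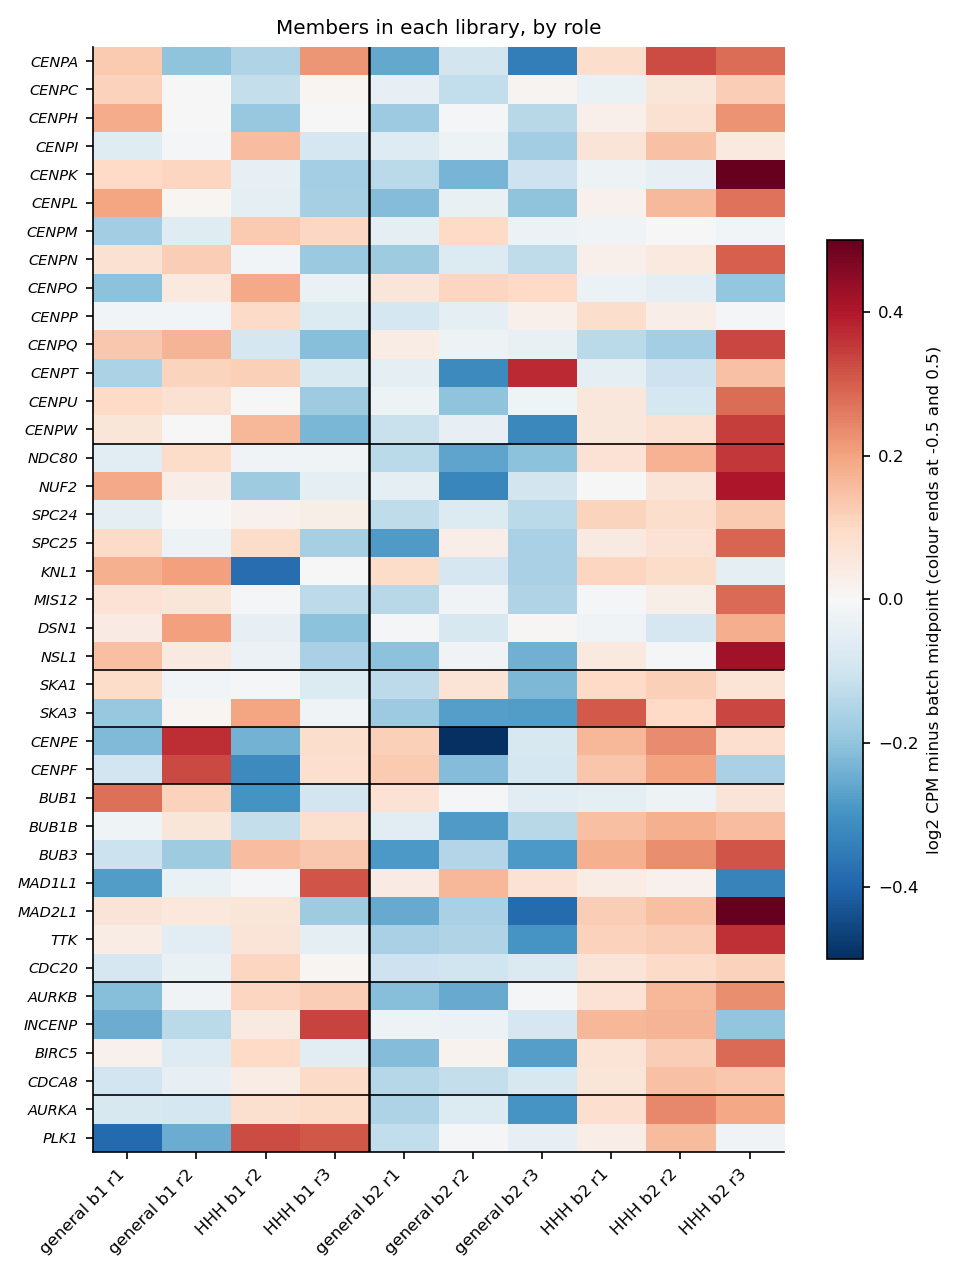
Log2 CPM of each gene (rows, by role, parted by lines) in each library (columns, b for batch and r for replicate), minus the midpoint of the population means of its batch, from blue (-0.5) to red (0.5). In batch 2 the 3 HHH columns are mostly red, deepest in replicate 3 for CENPK, NUF2, NSL1 and MAD2L1, while in batch 1 the HHH columns hold both colours.

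HHH batch 2 replicate 3 stood above its fellow libraries for several of these genes. CENPK was at 43.6 CPM there against 29.5 and 29.2 CPM, and NUF2 at 48.4 CPM against 36.5 and 38.2 CPM. Without this library 27 of the 39 genes were above 0 over both batches instead of 32, with a median log2 change of 0.10, and 4 passed, SKA3, BUB3, INCENP and PLK1. In batch 2 the count of 9 calls fell to 4 without it, to 5 without HHH batch 2 replicate 2 or general batch 2 replicate 1, and to 3 without general batch 2 replicate 3. Over all tested genes, the number higher in batch 2 fell as well, from 901 to 303 without HHH batch 2 replicate 3. It was 628 without HHH batch 2 replicate 2, 324 without general batch 2 replicate 1 and 153 without general batch 2 replicate 3. SKA3 and BUB3 passed in batch 2 in all of these fits.

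The change within a batch moved with base composition. GC content of the longest annotated transcript ran from 32.8% in CENPK to 62.6% in MAD1L1. In batch 1 all 14 genes with at least 45% GC were above 0 (median 0.15), whereas 4 of the 25 below 45% were (median -0.17). In batch 2 it was 10 of 14 (median 0.15) and 24 of 25 (median 0.27). The 45% line was drawn after the values had been seen. Across the 39 genes, which share libraries and are not replicates, the log2 change had a Pearson correlation with GC content of 0.72 in batch 1 and of -0.46 in batch 2. Across 9531 protein-coding genes with at least 10 CPM the values were 0.38 and -0.40, so slopes of the same signs were found over genes in general. The plot of change against GC content shows both.

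**Figure D4:**
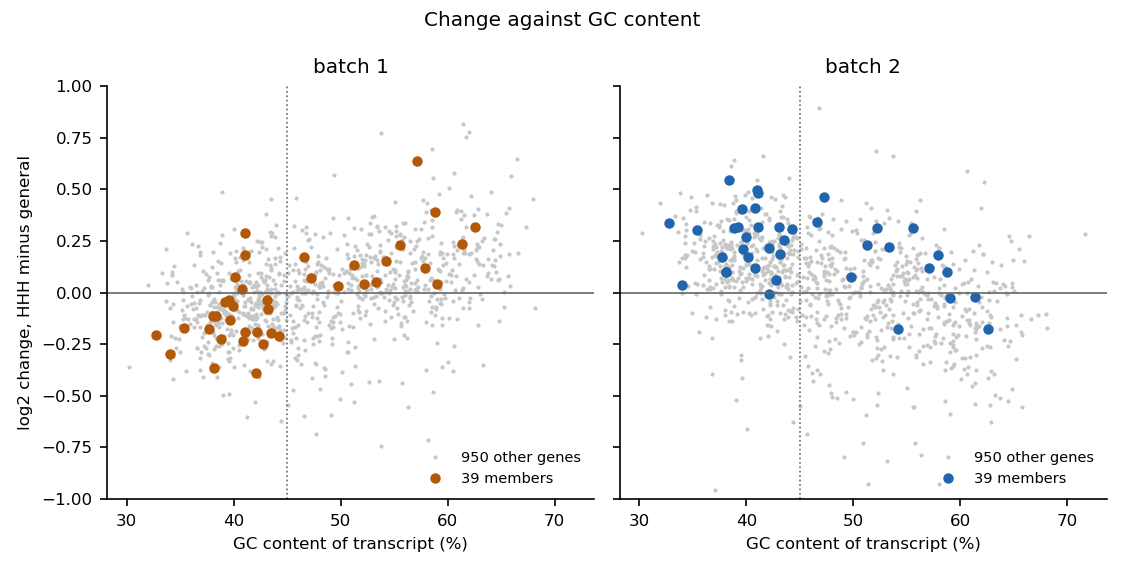
Log2 change of HHH against general (vertical axis, drawn from -1 to 1) by GC content of the transcript in percent (horizontal axis) for the 39 genes (coloured) and for 1 in 10 of the other protein-coding genes with at least 10 CPM (grey, 950), in each batch, with a dotted line at 45%. The 39 genes follow the opposite slopes of the grey points, and PLK1 (57.1% GC, 0.64 in batch 1) stands above them.

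In an alternative fit, in which each library was corrected for a smooth trend with GC content, the median log2 change of the listed genes was 0.01 in batch 1, with 22 above 0, and 0.21 in batch 2, with 34 above 0. The number that passed over both batches rose from 4 to 8, which were SKA3, BUB3, CDC20, AURKB, INCENP, CDCA8, AURKA and PLK1, and to 10 with the replicate block as well. All were higher in HHH. The calls over all tested genes rose as well, from 1.94% higher to 3.43%, and to 5.27% with the block. In batch 1 PLK1 was still the one call (log2 change 0.62, adjusted p = 0.00312, edgeR), and in batch 2 12 passed, against 3.94% of all tested genes that passed as higher there. Among the listed genes, a correlation with GC content was still found in batch 1 after this correction. It was 0.58 there, and 14 of 14 genes with at least 45% GC and 8 of 25 below it were above 0. In batch 2 the correlation changed sign, from -0.46 to 0.16. Across the 9531 genes the values after the correction were 0.12 in batch 1 and 0.022 in batch 2. What the remaining correlation of the listed genes came from was not tested. Over both batches, the correlation of the listed genes with GC content rose from 0.12 to 0.41 under this correction. Across the 9531 genes it went from -0.14 to 0.067. The calls added by the correction, CDC20, INCENP, CDCA8 and PLK1, all had at least 45% GC. The part of base composition in these calls and in the difference between batches was not tested further.

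The direction depended on the scaling in 1 alternative. In the log2 values as the authors deposited them, the median change over all tested genes was -0.12, 16 of the 39 listed genes were above 0 and none passed limma's test, nor did any reach an unadjusted p under 0.05, which 20.7% of all tested genes did. After each library was centred on its median, 33 were above 0, the median was 0.13, and BUB3 passed (adjusted p = 0.0237). In the other scalings of the counts, 29 to 32 were above 0.

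Genes that work next to these were read from lists of their own. Of 21 other kinetochore and checkpoint genes, 2 were higher over both batches and none was lower, with a median log2 change of 0.16. They were BORA, the activator of AURKA, at 0.31 ± 0.09 (SE; adjusted p = 0.0470, edgeR), and KNSTRN, a kinetochore and spindle protein, at 0.26 ± 0.07 (adjusted p = 0.0473). Of 4 genes for the loading of CENPA, HJURP, its chaperone, was higher at 0.38 ± 0.06 (adjusted p = 0.00149), its mean level being 53.7 ± 5.59 CPM (SD, n = 5) in general libraries against 70.3 ± 9.62 CPM (SD, n = 5). Of 20 genes of the APC/C, its regulators and securin, UBE2C, the ubiquitin-conjugating enzyme of the APC/C, was higher at 0.41 ± 0.09 (adjusted p = 0.0180), and the median was 0.11. Within batch 1, 3 of these 20 were higher, UBE2S, UBE2C and FZR1, and within batch 2 it was 2. The other kinetochore list had 0 calls in batch 1 and 6 in batch 2, all higher. UBE2S stood at 1.04 in batch 1 and 0.09 in batch 2, and it passed the interaction test of edgeR (adjusted p = 0.0142).

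Among cell cycle lists, 42 genes of a commonly used G2/M score list that are not among the 39 had a median log2 change of 0.15. Over both batches 7 of them were higher and none lower. UBE2C and HJURP, already named from the neighbouring lists, are among these 7, so the lists are not separate. In batch 1 their median was 0.04, with 1 gene higher, and in batch 2 it was 0.27, with 18 of 42 higher. The rise in batch 2 was thus not particular to the 39 genes. The 12 listed genes that belong to that score list had a median of 0.20, with 2 calls, and the 27 outside it one of 0.08, with 2 calls. Of 42 genes of an S phase list, none passed in either direction and the median was -0.01. In batch 1 the S phase median was -0.15, with 35 of 42 below 0 and 1 gene lower, and in batch 2 it was 0.06, with 32 of 42 above 0 and 2 genes higher. The summed level of the 39 genes was 2918 to 3076 CPM in the general libraries, 2918 and 2933 CPM in the HHH libraries of batch 1, while the HHH libraries of batch 2 reached 3398 to 3544 CPM.

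On the neural list given above, OTX2 was at 34.1 to 46.95 CPM in HHH and at 89.4 to 136 CPM in general. PAX6 was at 0.700 to 1.16 CPM in general and 0.744 to 1.07 CPM in HHH. The study also counts OTX2 as a marker of the mouse epiblast after implantation, expressed in both populations, so it does not mark neural cells alone. Of 7 pluripotency markers NANOG was higher and SOX2 lower, with sums of 4350 to 5626 CPM in general and 4155 to 5478 CPM in HHH. Of 4 genes tested on a list of fibroblast markers, THY1 was higher and COL1A1 lower. THY1 was at 135 to 157 CPM in general and 189 to 245 CPM in HHH, whereas DCN, COL3A1 and LUM on the same list were at or near 0. Of 11 dissociation and stress genes EGR1 was lower, with sums of 225 to 241 CPM in general and 202 to 293 CPM in HHH. Their part in the changes of the 39 genes was not tested.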

How the data were processed

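RNA of 10 libraries was sequenced from TruSeq RNA libraries. Raw fragment counts by Ensembl gene were deposited by the authors as whole numbers. The other table is a score made by the authors before deposit, the log2 of TMM-scaled RPKM, as its name says. In this table the batch means were equal within 9.24e-14 over 27641 genes, so a batch term had been taken out before the authors deposited it, and it served only as an alternative. The submitters' processing notes list CASAVA 1.8.2, R 3.2.2, limma 3.26.9 and GRCh37 with no role. The aligner, the counter and its strand setting are not given in the sources used here. Whether the line labelled HES9 is the WA09 line of the study's methods, and whether the protein kinase C inhibitor of the design text was used in any library, is not resolved here.

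Symbols, coordinates, GC content and overlaps came from GENCODE 44 (GRCh38), by a match of identifiers (88.5% matched). Identifiers without a match took 7.44 to 20.3% of the counts of a library and stayed in the fits. Genes were kept by edgeR's filterByExpr (minimum count 10). After TMM scaling, HHH and general were compared with edgeR 4.0.16 (R 4.3.3), by its two-sided quasi-likelihood F test, in all 10 libraries with batch as an additive term, and in a model with 1 mean per population and batch for the contrasts within batches and their difference. P values were adjusted by Benjamini and Hochberg over all 23552 tested genes, with a threshold of 0.05. Standard errors were taken as |log2 change| over the root of F. CPM per kilobase used gene lengths recovered from the 2 deposited files. Within a batch, libraries with the same replicate number deviated together (correlations 0.113 in batch 1, and 0.239, 0.143 and 0.113 in batch 2; in batch 1, with 2 libraries per population, the size is the same for either pairing). The scripts were tested on simulated data. UHRF1 of the S phase list is not analysed here.

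The members and lists were chosen with earlier results of these data known. By rule every member was named with its log2 change, and values in every library were given for members that passed and otherwise for the largest change and the most abundant per length in each role, with BUB1, and CENPK and NUF2 in 1 library, added after their values were seen. Of neighbouring lists, the genes that passed over both batches were named, with the calls of the APC/C list in batch 1. The alternatives left out the batch term, or used the replicate block, GC trend removal (a spline with 5 degrees of freedom, with and without the block), RLE, upper quartile and library size scaling, 2 other filters, DESeq2 1.42.0, limma 3.58.1 with voom or on the deposited log2 values, small RNAs left out, a fold over 1.5, fits of single batches, and fits with 1 library removed. GC trend removal within batches and centring of the deposited values were added after the data had been seen.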

Additional observations from a re-analysis of the deposited data

Results flagged for a closer look

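Among 78 sets of 5 libraries, the 39 genes in each population, 1 value stood far from the rest. CENPO, a CCAN subunit, was at 45.3 CPM in general batch 1 replicate 1, whereas the other general libraries had 54.1, 53.4, 55.2 and 55.0 CPM. The gap to the nearest library was 0.818 of the whole range of the population, over the 0.71 of Dixon's criterion for 5 values. Chance alone flags about 1 set in 20. Of the exonic bases of CENPO, 31.6% overlap other annotated genes, ADCY3 among them, and the part of this overlap in the low value was not tested.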

How the results depend on the processing

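The 4 listed genes that passed over both batches were 4 with RLE and upper quartile scaling, voom, a filter of at least 1 CPM, and small RNAs left out, and 6 with DESeq2. The number was 0 without the batch term, 2 with the replicate block, 10 with the block and the GC trend removed, 8 with the GC trend removed, 2 with library size only, 7 with no filter, 0 on the deposited log2 values, 1 on these values after centring and 0 with a fold over 1.5. With 1 library left out it ran from 1 to 6, while 221 to 961 of all tested genes passed as higher. Of all tested genes, 753 passed as higher with DESeq2 and 248 with library size only. In every one of these settings the listed genes that passed were higher in HHH. Within batch 1 the number ran from 0 to 2 with 1 library left out, where KNL1 passed as lower without HHH batch 1 replicate 3. Within batch 2 it ran from 3 to 8, and it was 9 with the batch alone and 11 with the batch alone and the replicate block. The block changed no other call over both batches than those of AURKB and AURKA. Over all tested genes, 1373 passed, 168 without the batch term, 2528 with the block and the GC trend removed, 2423 with no filter, 898 on the centred deposited values and 701 with a fold over 1.5. The split into 458 higher and 915 lower became 808 and 1000 with the GC trend removed and 50 and 1227 on the deposited log2 values. Within batch 1 fitted alone, 136 of all genes passed and not 504, within batch 2 alone with the replicate block 3733 and not 2231, and with the GC trend removed 16 and not 183 had an interaction.

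Some listed genes changed sign, up to SPC25 at 0.14 over both batches, and none of them was a call. Their log2 changes were, on the deposited log2 values, CENPC -0.12, CENPH -0.084, CENPI -0.0054, CENPK -0.034, CENPL -0.039, CENPM -0.055, CENPN -0.068, CENPP -0.082, CENPU -0.11, NUF2 -0.042, SPC25 -0.0037, MIS12 -0.068, NSL1 -0.031, SKA1 -0.055, CENPE -0.0035 and MAD1L1 -0.12, and with centring CENPT 0.034. With the GC trend removed they were CENPC -0.018, CENPO 0.0035, CENPT 0.093 and CENPU -0.0034, and with the replicate block as well CENPC -0.023 and CENPT 0.12. With the replicate block alone MAD1L1 was at -0.13. With upper quartile scaling CENPC was at -0.0066 and MAD1L1 at -0.0024, and with library size only CENPC at -0.021, CENPU at -0.0086 and MAD1L1 at -0.013. CENPT was at 0.00059 and CENPF at 0.042 without the batch term, and CENPT at 0.0089 with no filter, 0.016 with voom and 0.0013 with small RNAs left out. With 1 library left out, the ranges that crossed 0 were CENPC -0.017 to 0.058, CENPH -0.00094 to 0.12, CENPK -0.029 to 0.20, CENPN -0.0023 to 0.15, CENPO -0.11 to 0.00091, CENPT -0.077 to 0.11, CENPU -0.044 to 0.10, NUF2 -0.0026 to 0.18, KNL1 -0.15 to 0.016, MIS12 -0.00012 to 0.13, CENPE -3.5e-05 to 0.26, CENPF -0.084 to 0.082 and MAD1L1 -0.074 to 0.11. The cause was not tested in any of these. Depth did not limit the listed genes.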
